A study of Rattus norvegicus with 6 samples.

Results

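Muscle atrophy ligases and their FoxO regulators were examined in rat heart after repeated doxorubicin, an anthracycline chemotherapy drug. The genes were taken by symbol from a table of read counts: the ubiquitin ligase genes Fbxo32, Trim63, Trim54 and Trim55, the transcription factor genes Foxo1, Foxo3, Foxo4 and Klf15, and the growth factor gene Mstn. These are 9 of the 17487 symbols in the table. Each stood on 1 row, and 7 of the 9 passed the filter on low counts that left 9205 symbols for testing. Foxo4 and Mstn did not pass.

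RNA came from heart tissue of 6 adult male Wistar rats, an outbred strain, with 1 library per animal. The doxorubicin group was 3 rats given 3.75 mg/kg doxorubicin hydrochloride into the tail vein weekly for 4 weeks. The control group was 3 rats given 0.9% saline on the same schedule. The labels name no chamber of the heart, no interval after the last injection and no muscle or body weight.

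A muscle fibre breaks down its own proteins largely through the ubiquitin-proteasome pathway, in which ligases tag chosen proteins for destruction. Atrogin-1, the F-box protein encoded by Fbxo32, is the substrate-binding part of a cullin-based ligase, and MuRF1, encoded by Trim63, is a RING-finger ligase that binds titin and acts on thick-filament proteins. Trim55 and Trim54 encode the related sarcomere proteins MuRF2 and MuRF3. FoxO transcription factors switch on both main ligase genes when insulin and IGF signalling through Akt is low, because Akt keeps FoxO proteins out of the nucleus. Glucocorticoids raise Klf15 and also act on Trim63, and myostatin, encoded by Mstn, is a secreted restraint on muscle growth. In the heart the ligases take part in turnover of sarcomere proteins and in limiting hypertrophy.

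The start region of Trim63 held letters that match both a FoxO and a glucocorticoid receptor motif, and it is printed for that reason, beside that of Klf15. RefSeq promoters of the GRCr8 assembly, 250 bases before to 50 after the annotated start, were on hand for 5 of the 9 genes: Trim63, Klf15, Trim54, Foxo1 and Foxo4. They were searched on both strands for the FoxO core GTAAACA, the FoxO insulin-response core AAAACAA, the glucocorticoid receptor core AGAACA and the E-box CACGTG, which clock proteins bind. The first line lies at chr5:151816986-151817285 on the plus strand, where the capitals mark the FoxO core, the receptor core and the facing pair described after the sequences, with its spacer. The second lies at chr4:124522765-124523064 on the plus strand, with its E-box in capitals.
Trim63: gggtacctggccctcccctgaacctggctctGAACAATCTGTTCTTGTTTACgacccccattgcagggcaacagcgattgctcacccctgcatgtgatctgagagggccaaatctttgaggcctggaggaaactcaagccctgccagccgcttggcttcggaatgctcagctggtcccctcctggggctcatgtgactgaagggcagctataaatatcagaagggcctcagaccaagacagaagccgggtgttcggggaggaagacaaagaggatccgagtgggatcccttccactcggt
Klf15: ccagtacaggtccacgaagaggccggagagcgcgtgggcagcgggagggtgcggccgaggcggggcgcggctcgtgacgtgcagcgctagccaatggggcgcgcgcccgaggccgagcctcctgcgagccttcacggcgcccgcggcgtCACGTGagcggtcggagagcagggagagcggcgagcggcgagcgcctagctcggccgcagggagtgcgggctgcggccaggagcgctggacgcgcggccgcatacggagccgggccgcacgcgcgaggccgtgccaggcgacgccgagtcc
In Trim63 the FoxO core was read on the minus strand from -205 to -199 relative to the start, directly after the receptor core from -211 to -206. A search added after the sequence was seen, for GAACA and TGTTC facing each other 3 bases apart, matched from -219 to -207 and overlaps that receptor core. Of 33469 promoters in the table, 3.78% held the FoxO core, 20.7% the receptor core and 0.0508% the facing pair. The full facing pair, AGAACA and TGTTCT 3 bases apart, was in 0.0149% of promoters and in no promoter of the 5. Klf15 held its E-box from -101 to -96, a motif in 6.42% of promoters. The insulin-response core, in 9.03% of promoters, was in no promoter of the 5, and Trim54, Foxo1 and Foxo4 held no searched motif. A match describes letters in this window and is no measure of binding.

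Values of the 3 libraries of a group are given in the order of their replicate numbers. Library totals ranged from 2219685 to 3508282 counts. Levels are CPM, counts scaled to the usual common total with the trimmed mean of M-values (TMM), and 3 counts, the smallest level taken as detectable, are 0.855 to 1.35 CPM. Control library 1 had the highest level of 26.7% of tested symbols and doxorubicin library 3 of 20.6%, against 9.61% to 18.5% for the other libraries. Markers of heart muscle cells summed to 141316 to 167520 CPM in control and 132743 to 145468 in doxorubicin libraries, on 11 of 12 symbols in the table. Macrophage markers summed to 271 to 286 CPM in control and 324 to 532 in doxorubicin libraries (12 of 12 symbols in the table, Ptprc listed at 0), so these groups did not overlap. Skeletal muscle markers summed to 6762 to 11530 CPM in control and 5843 to 7130 in doxorubicin libraries, with Tnnt3, Pvalb and Myod1 listed at 0. Nearly all of this sum was Ckm and Acta1, so it mainly tracks these genes. Ckm was at 10494, 5822 and 6893 CPM in controls and 4181, 5977 and 4337 CPM after doxorubicin. Acta1 was at 1026, 930 and 600 CPM in controls and 2647, 1137 and 1490 CPM after doxorubicin. Their log2 fold changes had opposite signs, -0.68 for Ckm and 1.05 for Acta1. Of 10 marker lists, the macrophage list was the only one whose sums did not overlap between the groups. In bulk tissue, fewer cells of a type and less RNA per cell cannot be told apart.

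The comparison asked whether these atrophy genes differed in the heart after doxorubicin. By edgeR's quasi-likelihood test 0 of the 7 tested genes had a Benjamini-Hochberg adjusted p under 0.05, against 0.0543% of all tested symbols. DESeq2 and limma voom also called 0 of the 7. At an unadjusted p under 0.05 there were 2 of the 7, Trim55 and Foxo3, both higher in doxorubicin, against 8.10% of all tested symbols in either direction and 4.00% higher. The groups did not overlap for the same pair of genes, against 13.4% of all tested symbols in either direction and 6.39% with doxorubicin higher. Estimates lay above 0 for 5 of the 7 genes, against 52.1% of all tested symbols. The main atrophy ligases Fbxo32 and Trim63 and the regulator Foxo1 had estimates close to 0.

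Fbxo32, the atrogin-1 gene, was at 15.7, 33.8 and 19.0 CPM in controls and 16.1, 19.0 and 34.8 CPM after doxorubicin. Each group had a single library at about the same high level and a pair of lower ones, and the groups overlapped. The group means were 22.8 ± 9.63 and 23.3 ± 10.1 CPM (SD, n = 3). The fitted log2 fold change of 0.05 had an SE of 0.34 and an edgeR adjusted p of 0.982, with a 95% interval from a fold of 0.621 to 1.72. These values rest on 41 to 118 counts per library.

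Trim63, the MuRF1 gene, rested on 380 to 783 counts per library. It was at 145, 184 and 222 CPM in controls and 156, 214 and 150 CPM after doxorubicin. The lowest and the highest values were both in control hearts. The fitted log2 fold change of -0.09 had an SE of 0.21 and an edgeR adjusted p of 0.943, with an interval from a fold of 0.690 to 1.28.

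**Figure D1:**
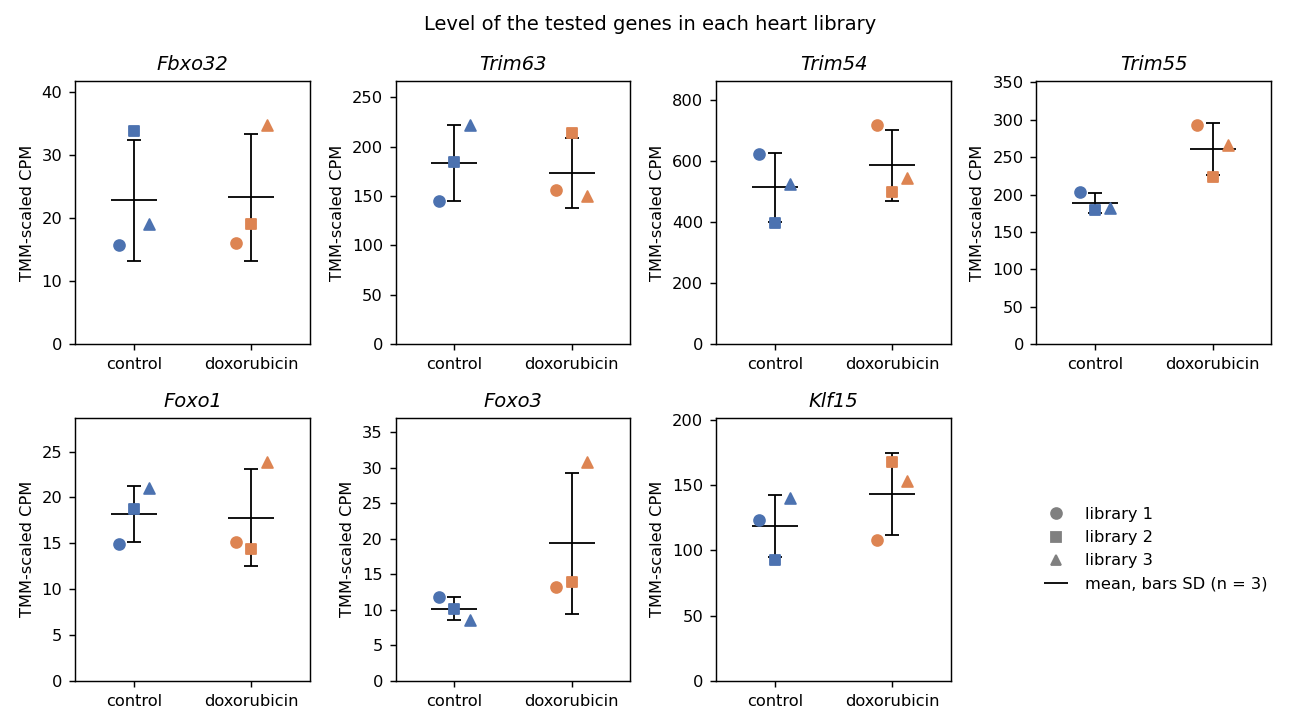
TMM-scaled CPM (vertical axes, from 0) of the 7 tested genes in 3 control and 3 doxorubicin heart libraries. Points are libraries, with one marker shape per replicate number, and horizontal lines with bars are the mean and SD. Trim55 and Foxo3 are the genes whose groups do not overlap, and the highest Foxo3 point, at 30.9 CPM, is doxorubicin library 3.

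Trim55, the MuRF2 gene, was at 204, 179 and 182 CPM in controls and 293, 224 and 266 CPM after doxorubicin. All doxorubicin values lay above all control values. The means were 188 ± 13.8 and 261 ± 35.1 CPM (SD, n = 3), from 402 to 914 counts per library. The log2 fold change was 0.47 (SE 0.18, interval 0.09 to 0.86), a fold of 1.39. Its unadjusted p of 0.0194 ranked 365 among 9205 symbols, and its edgeR adjusted p was 0.490. In GRCr8 a lncRNA gene, LOC120100781, overlaps Trim55. Counting was done on another build, mRatBN7.2, and its annotation and use of strand were not stated. Whether reads of the lncRNA entered the Trim55 counts was not tested. Macrophage marker sums also did not overlap between the groups. Atrial marker sums were 755, 431 and 213 CPM in controls and 3307, 306 and 936 CPM after doxorubicin (7 of 7 symbols in the table), and doxorubicin library 1 was the highest both in these and in Trim55. Of the 4 atrial markers tested, only 1 had a higher estimate after doxorubicin, so the sums do not track the list as a whole. The part of either marker list in this result was not tested.

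Trim54, the MuRF3 gene, was at 622, 396 and 523 CPM in controls and 718, 497 and 544 CPM after doxorubicin. Doxorubicin library 1 was the highest and control library 2 the lowest, and the groups overlapped. The fitted log2 fold change of 0.19 had an SE of 0.21 and an edgeR adjusted p of 0.852, with a 95% interval of -0.26 to 0.65. The MuRF genes are paralogs, and how reads shared between them were counted was not stated.

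The balance of the MuRF transcripts within a library needs no scaling between libraries, though it depends on transcript length and shows only changes between libraries. Trim63 took 14.9%, 24.2% and 24.0% of the Trim63, Trim54 and Trim55 counts in controls and 13.4%, 22.9% and 15.6% after doxorubicin. The groups overlapped, with means of 21.1% ± 5.29 and 17.3% ± 4.96 (SD, n = 3, 2-sided exact permutation p = 0.3). Trim55, a share computed after its level was seen, took 21.0%, 23.5% and 19.6% in control and 25.1%, 23.9% and 27.7% in doxorubicin libraries. These groups did not overlap, but control library 2 and doxorubicin library 2 were within counting error, with Wilson 95% intervals of 21.6% to 25.6% and 22.4% to 25.5%. With 3 libraries against 3 no p under 0.1 can be reached, and the exact permutation p was 0.1, or 0.25 after Benjamini-Hochberg adjustment over the 5 shares computed. Trim54 averaged 57.6% ± 5.99 in controls and 57.1% ± 4.17 after doxorubicin (SD, n = 3).

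Fbxo32 counts were 9.74%, 15.5% and 7.88% of Fbxo32 and Trim63 counts together in controls and 9.31%, 8.18% and 18.8% after doxorubicin. The high libraries were those with high Fbxo32, and the groups overlapped (2-sided exact permutation p = 0.8, n = 3 per group).

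**Figure D2:**
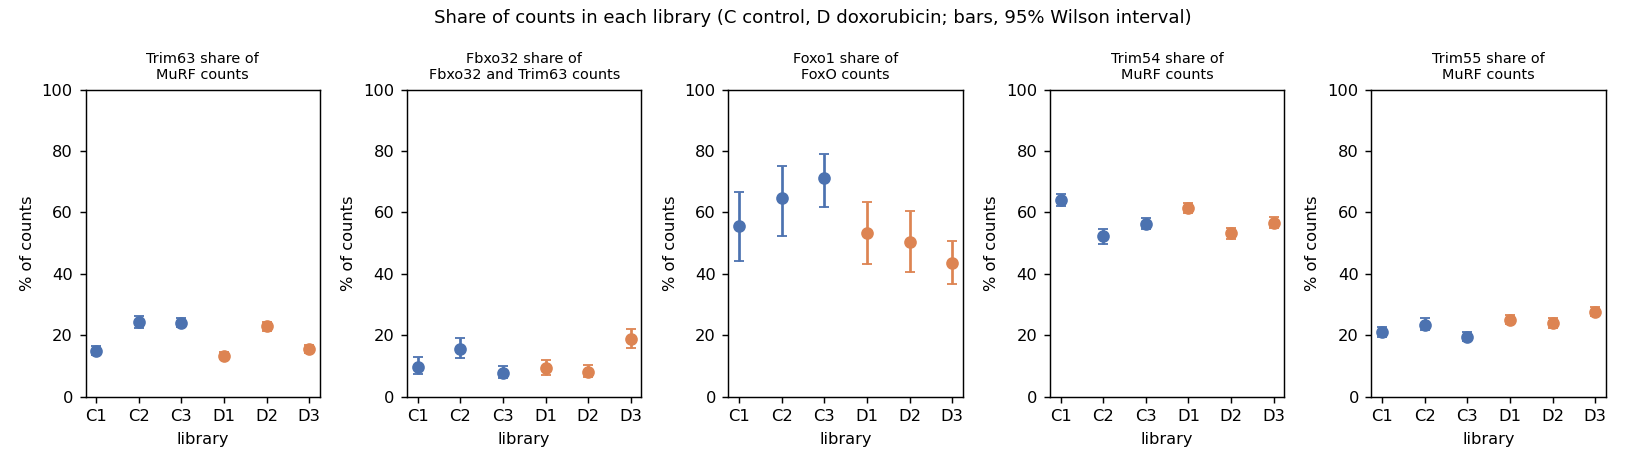
Percent of counts (vertical axes, 0 to 100) that a gene takes within a family or pair in each library, C for control and D for doxorubicin. Points are libraries and bars are Wilson 95% intervals for counting error. The Foxo1 and Trim55 shares are those whose groups do not overlap, and for Foxo1 the interval of control library 1 overlaps those of all doxorubicin libraries.

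Among the FoxO genes, Foxo1 was at 14.9, 18.7 and 21.0 CPM in controls and 15.1, 14.4 and 23.9 CPM after doxorubicin. The lowest and highest values were both in doxorubicin hearts. The fitted log2 fold change of -0.04 had an SE of 0.29 and an edgeR adjusted p of 0.985, with an interval from a fold of 0.637 to 1.49, on 39 to 81 counts per library.

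Foxo3 was at 11.8, 10.2 and 8.52 CPM in controls and 13.2, 14.0 and 30.9 CPM after doxorubicin. All doxorubicin values lay above all control values, and doxorubicin library 3 stood 2.20 times above the next. The means were 10.2 ± 1.66 and 19.4 ± 10.02 CPM (SD, n = 3), from 23 to 105 counts per library. The log2 fold change was 0.94 (SE 0.36, interval 0.17 to 1.71), with an unadjusted p of 0.0208 and an edgeR adjusted p of 0.498. Without doxorubicin library 3 it was 0.43, with an unadjusted p of 0.206 (edgeR adjusted p 0.855). Foxo3 shared its non-overlap with the macrophage marker sums, and their part in it was not tested. After doxorubicin those sums were 324, 532 and 364 CPM.

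Foxo4 was listed at 0 in all 6 libraries, which allows up to 0.855 to 1.35 CPM. Whether the annotation used for counting could assign reads to it was not tested. Of the FoxO counts, here those of Foxo1 and Foxo3, Foxo1 took 55.7%, 64.6% and 71.2% in controls and 53.4%, 50.5% and 43.5% after doxorubicin. The means were 63.8% ± 7.75 and 49.2% ± 5.07 (SD, n = 3), and the groups did not overlap. With Foxo4 at 0 the rest of these counts is Foxo3, so this share is not separate from the Foxo3 difference given above. By 2-sided exact permutation p = 0.1, which is the lowest this design allows, and 0.25 after adjustment over the 5 shares. Shares rest on 65 to 186 counts, and the Wilson interval of control library 1, 44.1% to 66.8%, overlaps those of all 3 doxorubicin libraries.

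Klf15, a Kruppel-like factor gene tied to glucocorticoid action and amino acid use, was at 123, 92.8 and 140 CPM in controls and 108, 168 and 153 CPM after doxorubicin. Doxorubicin libraries 2 and 3 lay above all controls and doxorubicin library 1 lay among them. The fitted log2 fold change of 0.27 had an SE of 0.21 and an edgeR adjusted p of 0.785, with a 95% interval of -0.19 to 0.73, on 209 to 538 counts per library.

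Mstn, the myostatin gene, had 0, 0 and 2 counts in controls and 0, 3 and 1 after doxorubicin. These are at or under the level taken as detectable, and Mstn did not pass the filter. Tested with no filter, it had an edgeR log2 fold change of 0.74 with an SE of 1.49 (adjusted p 0.920), so no difference was detectable at this depth.

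**Figure D3:**
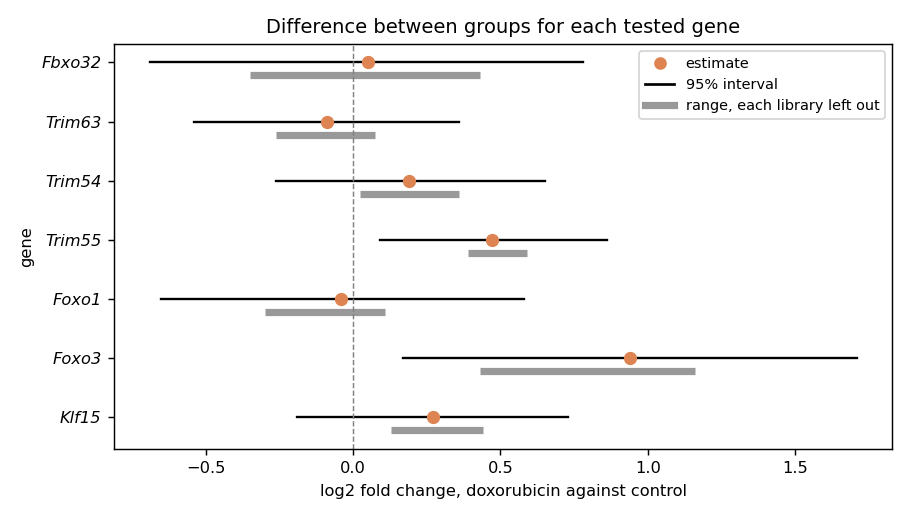
Log2 fold change of doxorubicin against control (horizontal axis) for the 7 tested genes, with points for the estimate, black lines for the 95% interval and gray bars for the range when each library in turn was left out. The intervals of Trim55 (0.09 to 0.86) and Foxo3 (0.17 to 1.71) lie above 0, and the gray bar of Foxo3 reaches down to 0.43.

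The genes did not follow a common profile over the 6 libraries. Fbxo32, Foxo1 and Foxo3 were highest in doxorubicin library 3, Trim54 and Trim55 in doxorubicin library 1, Klf15 in doxorubicin library 2 and Trim63 in control library 3. Over the 6 libraries Fbxo32 and Trim63 had a Pearson's r of -0.04 on log2 CPM (permutation p 0.915) and a Spearman's rho of 0.20 (permutation p 0.714). Without control library 2 and doxorubicin library 3, the libraries farthest from the median of Fbxo32, r was 1.00 on the 4 left, so the pooled value rests on those libraries. Fbxo32 and Foxo1 had the largest r of the 21 pairs, 0.72 (permutation p 0.142), with a rho of 0.54 (permutation p 0.297) and an r of 0.48 without the same libraries. The smallest Benjamini-Hochberg adjusted permutation p over the 21 pairs was 0.782 for r, and each adjusted p for rho was 1. The libraries share the treatment groups, and levels near 10 CPM carry large counting error.

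**Figure D4:**
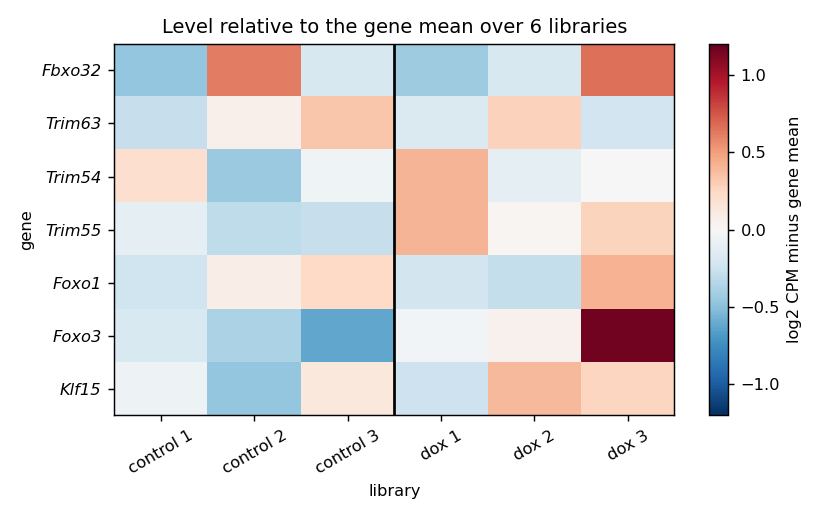
Log2 CPM of each tested gene minus its mean over the 6 libraries (color, red above and blue below the mean), with libraries in columns and a line between control and doxorubicin. Fbxo32 is high in control library 2 and doxorubicin library 3, and Trim63 is above its mean in control libraries 2 and 3 and doxorubicin library 2.

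The symbols most like 4 of the genes were taken from 7414 symbols with a mean of at least 10 CPM, by Pearson's r of log2 CPM over the 6 libraries. With so many symbols and 6 libraries, high values arise easily, and they are given as a description. For Fbxo32 they were Tnks (r 0.993), Dnajc28 (0.984) and Rab10 (0.983). For Trim63 they were Slc38a2 (0.982), Mast3 (0.977) and Ppid (0.965). For Foxo1 they were Fnip1 (0.983), Aldh6a1 (0.964) and Rcor3 (0.964), and for Klf15 they were Fubp1 (0.990), Rgs12 (0.986) and Prpf19 (0.977). Tnks encodes the poly-ADP-ribosylating enzyme tankyrase and Slc38a2 a neutral amino acid transporter, and Fnip1 encodes a partner of folliculin in nutrient signalling.

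The wider pathway was described with 11 gene lists, and 0 genes of any list passed the adjusted threshold in edgeR. The list median and the genes with an unadjusted p under 0.05 are set beside those of all tested symbols, which were 0.02 on the log2 scale and 8.10%. Named genes are among the 3 of their list with the smallest p. That choice favours genes whose groups do not overlap, so their non-overlap is no result about the list. Over all tested symbols 13.4% had such groups.

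Upstream of FoxO, 20 of 30 tested regulators had estimates above 0 and 10 below, with a median log2 fold change of 0.13 (0.22 without doxorubicin library 2 and 0.08 without doxorubicin library 3). There were 4 with an unadjusted p under 0.05, all higher in doxorubicin. Usp7, which encodes a deubiquitinase that acts on FoxO proteins and on the p53 regulator Mdm2, was at 57.0 ± 10.1 CPM in controls and 91.5 ± 14.2 CPM in treated hearts (SD, n = 3). That is a log2 fold change of 0.68 with an SE of 0.20, at an edgeR adjusted p of 0.314. Igf2r, the receptor gene that clears IGF2, was at 171 ± 19.96 and 264 ± 62.9 CPM (log2 fold change 0.63). Insr, the insulin receptor gene and itself a FoxO target, was at 21.2 ± 3.14 and 31.9 ± 7.33 CPM (0.59). For each of these 3 genes, which were picked for the smallest p, all doxorubicin values lay above all control values. Groups did not overlap for 5 of the 30 regulators, or 16.7%, all higher in doxorubicin. The share over all tested symbols was 13.4% in either direction and 6.39% with doxorubicin higher.

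Of 23 tested FoxO target genes outside the ligases, 8 had estimates above 0 and 15 below, with a median of -0.04. There were 5 with an unadjusted p under 0.05, 4 lower and 1 higher, which was Insr. Groups did not overlap for 5 genes, or 21.7%, 2 of them higher and 3 lower in doxorubicin. Pdk4, the kinase gene that restrains pyruvate oxidation and a target of FoxO, PPAR and glucocorticoid signalling, was at 132, 119 and 260 CPM in controls and 37.2, 60.2 and 67.2 CPM after doxorubicin. The groups did not overlap, with a log2 fold change of -1.64 (SE 0.30, edgeR adjusted p 0.0791). Angptl4, a secreted inhibitor of lipoprotein lipase, had 13 to 29 counts in control and 3 to 8 in doxorubicin libraries. Its log2 fold change was -1.83 (SE 0.48, edgeR adjusted p 0.216). The 3 counts of doxorubicin library 1 are at the smallest level taken as detectable. Pdk4 and Angptl4 had lower values in each doxorubicin heart while Fbxo32 and Trim63 overlapped between the groups.

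Of 16 tested glucocorticoid response genes, 6 had estimates above 0 and 10 below, with a median of -0.17 (-0.06 without control library 3), and 6 had an unadjusted p under 0.05, 2 higher and 4 lower. Pdk4 and Angptl4 are also on this list. Mt1, a metallothionein gene, was at 49.1 ± 7.16 CPM in controls and 31.1 ± 7.50 CPM in treated hearts (SD, n = 3), a log2 fold change of -0.67 with groups that did not overlap. Of 19 tested genes linked to Klf15 in amino acid, glucose and clock pathways, 6 had estimates above 0 and 13 below, with a median of -0.23, and 5 had an unadjusted p under 0.05. That median was -0.12 without control library 1 and -0.14 without doxorubicin library 1. Bcat2, the mitochondrial branched-chain aminotransferase gene, was at 309 ± 59.1 and 221 ± 29.4 CPM (log2 fold change -0.48), and Slc2a4, the insulin-responsive glucose transporter gene, at 773 ± 169 and 567 ± 44.0 CPM (-0.45). Per2, a clock gene, was at 17.6, 15.1 and 28.7 CPM in controls and 80.2, 24.3 and 55.4 CPM after doxorubicin. Its log2 fold change was 1.36 (SE 0.38, edgeR adjusted p 0.258). The groups overlapped for Per2 and Bcat2 and did not for Slc2a4.

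Other ubiquitin ligase genes of muscle had 12 estimates above 0 and 17 below among 29 tested, with a median of -0.03, and 4 had an unadjusted p under 0.05. Fbxo31, which encodes another F-box protein, was at 218, 130 and 169 CPM in control and 105, 110 and 108 CPM after doxorubicin. The doxorubicin values lay together below all controls, with a log2 fold change of -0.68 (SE 0.20, adjusted p 0.305 by edgeR). Klhl41, a Kelch adaptor gene of striated muscle, was at 106 ± 23.1 and 171 ± 37.7 CPM (0.68). Ankrd1 is on the list although it encodes a stretch-responsive titin partner and no ligase. Ankrd1 was at 2913 ± 669.9 and 5213 ± 2665 CPM (0.84), with groups that overlapped. Of 22 tested genes of the SCF core and ubiquitin conjugation, 10 had estimates above 0 and 12 below, and 1 had an unadjusted p under 0.05. That was Ube2d2, a ubiquitin-conjugating enzyme gene, at 188 ± 33.3 and 141 ± 10.8 CPM (-0.41).

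**Figure D5:**
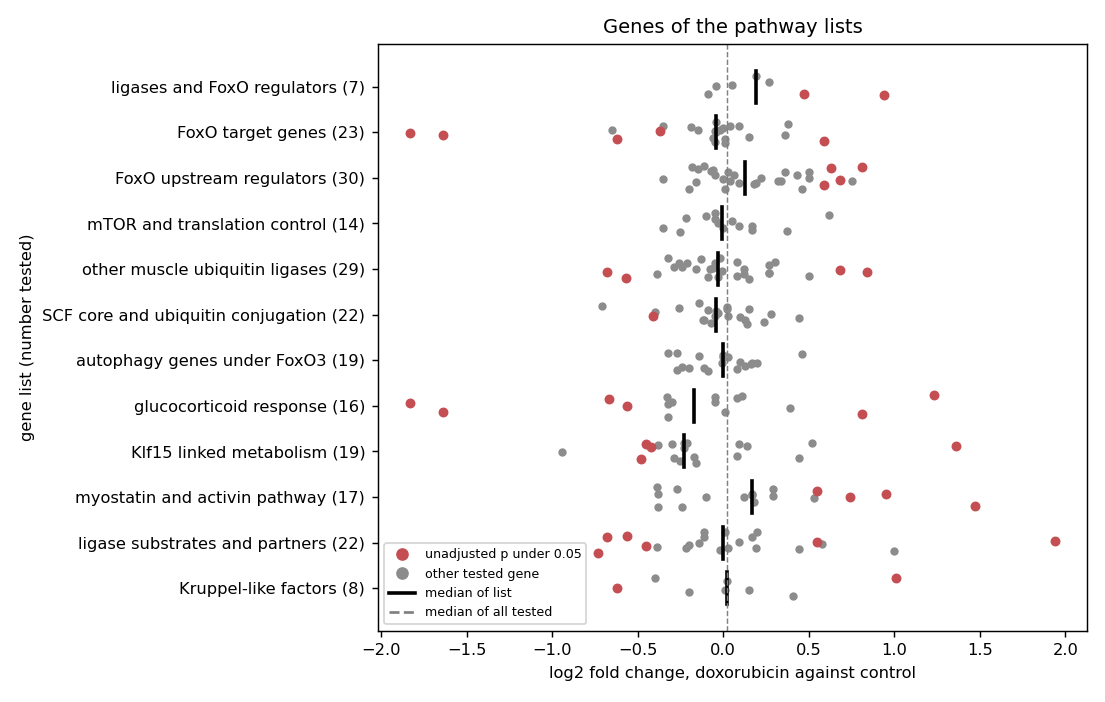
Log2 fold change of doxorubicin against control (horizontal axis) of each tested gene in the 7 ligases and regulators and the 11 pathway lists, with the number tested in brackets. Red points have an unadjusted p under 0.05, gray points do not, black bars are list medians and the dashed line is the median of all tested symbols, 0.02. The list medians lie between -0.23 and 0.19.

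The autophagy list drawn up around FoxO3 had 8 estimates above 0 and 11 below among 19 tested, with 0 at an unadjusted p under 0.05. Whether FoxO3 acts on each of these genes was not tested. Bnip3, a mitophagy receptor gene, was at 194 ± 25.9 and 267 ± 88.9 CPM, a log2 fold change of 0.46 (SE 0.23), and Map1lc3b, which encodes the autophagosome protein LC3B, had one of -0.24 (SE 0.17). That of Map1lc3a, the LC3A gene, was -0.32 (SE 0.24). The mTOR and translation list also had 0 of 14 at that level, and its smallest p was that of Ddit4, an mTOR inhibitor gene (log2 fold change -0.35, SE 0.20). Tsc1, a gene of the complex that restrains mTOR, had an estimate of 0.62 (SE 0.47), and Akt1s1, which encodes an mTOR-binding substrate of Akt, -0.25 (SE 0.21).

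Around myostatin, 11 of 17 tested genes had estimates above 0 and 6 below, with a median of 0.17, and 4 had an unadjusted p under 0.05, all higher. The median was 0.03 without control library 1 and 0.34 without doxorubicin library 1. Smad7, the inhibitory Smad gene, was at 39.1 ± 3.24 and 65.1 ± 23.1 CPM (log2 fold change 0.74, SE 0.25, adjusted p 0.400 by edgeR). Inhbb, the activin B subunit gene, was at 6.06 ± 0.636 and 11.7 ± 2.57 CPM (0.95). For both genes the groups did not overlap. Acvr1b, a type I activin receptor gene, was at 5.73, 10.7 and 7.67 CPM in controls and 40.8, 8.11 and 17.4 CPM after doxorubicin, with groups that overlapped.

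Of 22 tested substrates and partners of the ligases, 11 had estimates above 0 and 11 below, with a median near 0, and 6 had an unadjusted p under 0.05. Myh7, the slow myosin heavy chain gene, had an estimate of 1.94 on the log2 scale (SE 0.36, edgeR adjusted p 0.0944), and Myh6, the fast cardiac one, -0.73 (SE 0.25). Ckm, the muscle creatine kinase gene, was at 7737 ± 2447 and 4832 ± 995 CPM (-0.68). The groups overlapped for Myh6 and Ckm and did not for Myh7. The Kruppel-like factors other than Klf15 had 8 tested genes, 5 above 0 and 3 below. Klf9, a glucocorticoid-induced factor gene, was at 47.2, 38.7 and 121 CPM after doxorubicin against 18.3, 43.5 and 40.6 CPM in control libraries 1, 2 and 3 (log2 fold change 1.01, SE 0.44). For Klf2, an endothelial factor gene, the estimate was -0.62 (SE 0.26), and for Klf10 0.41 (SE 0.28).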

How the data were processed

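The authors deposited raw read counts per gene symbol for 6 heart libraries in a single table of 18473 rows, with no normalization. The submitters' processing notes name FastQC, Trimmomatic, STAR, HTSeq and the build mRatBN7.2, without versions. Counting mode, strand use and annotation are not given in the sources used here. Rows of a symbol were summed. Groups and replicate numbers came from the sample titles.

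The main test was edgeR 4.0.16 (R 4.3.3): filterByExpr (minimum count 10, minimum total 15), TMM, robust quasi-likelihood F test with treatment as the only term, and Benjamini-Hochberg adjustment over 9205 symbols at 0.05. Standard errors are the absolute log2 fold change over the square root of F, and 95% intervals use the test's degrees of freedom. Log2 CPM used a prior count of 2. On simulated counts for the same 9205 genes, 50% of 2-fold and 98% of 4-fold changes were recovered. The simulation drew all genes with 1 common dispersion, so these percentages do not hold for genes that vary more between animals. Alternatives used other scalings and filters, DESeq2 1.42.0, voom in limma 3.58.1, a replicate block and left-out libraries. Shares were compared by exact permutation in scipy 1.17.1. Counting error is all that share intervals and floors reflect, as the labels name no molecular identifiers. The genes and lists were chosen with earlier results of these data known. The named genes were all 9 of the set, up to 3 list genes with the smallest p where none passed, and the 3 symbols most like Fbxo32, Trim63, Foxo1 and Klf15. The results of 2 list genes are not reported here by name, and list counts include them. Gene lengths were not used, so levels are not compared between genes.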

Additional observations from a re-analysis of the deposited data

How the results depend on the processing

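Under each of 18 other settings 0 of the 7 genes passed the adjusted threshold, while the count over all symbols ranged from 0 to 74 against 5. Mstn was an 8th gene tested by DESeq2, which gave it no adjusted p, and with no filter, where it was not called. Trim55 and Foxo3 kept groups that did not overlap in the 12 settings with all libraries, and leaving out a library cannot undo that. Among the 12, voom, the replicate block and the non-robust fit used the same CPM as the main test. For them, groups that did not overlap were fixed in advance. Klf15 also had such groups without doxorubicin library 1, as did 22.1% of all symbols there. In all 12, DESeq2 and limma voom among them, both genes had an unadjusted p under 0.05. With a library left out, Trim55 ranged from 0.39 to 0.59 on the log2 scale and Foxo3 from 0.43 to 1.16. The edgeR p of Trim55 was then under 0.05 in 3 of 6 fits (0.0526 without control library 2, 0.0676 without control library 3 and 0.0713 without doxorubicin library 1), and that of Foxo3 in 4 of 6 (0.0817 without control library 3 and 0.206 without doxorubicin library 3). Some values near 0 changed sign, and the cause was not tested. Fbxo32 ranged from -0.35 to 0.43 with a library left out, Trim63 from -0.26 to 0.075, Foxo1 from -0.30 to 0.11, Trim54 from 0.025 to 0.36 and Klf15 from 0.13 to 0.44. Library size alone gave Foxo1 0.044, below the median of all symbols under that scaling, 0.10 against 0.02. The same omissions gave share differences of -2.30 to 3.30 percentage points for Fbxo32 (1.07 with all libraries), -6.83 to -1.83 for Trim63 and -18.7 to -11.0 for Foxo1. With a library left out, list medians ranged from 0.03 to 0.34 for the myostatin list and 0.08 to 0.22 upstream of FoxO. They ranged from -0.26 to -0.12 for Klf15-linked genes, -0.23 to -0.06 for glucocorticoid response genes and -0.10 to 0.00 for FoxO targets. The ranges were -0.15 to 0.04 for other ligases, -0.09 to 0.05 for the SCF list and -0.07 to 0.04 for autophagy. Substrates ranged from -0.09 to 0.04, Kruppel-like factors from -0.12 to 0.09 and mTOR from -0.03 to 0.06. By library size alone, where the median of all symbols was 0.10, FoxO targets had 0.04 and autophagy 0.09. Substrates and Kruppel-like factors each had 0.10 under that scaling. The glucocorticoid median was -0.04 with a filter at a mean of 5 CPM. With the replicate number as a block the log2 fold changes were 0.47 for Trim55 (edgeR adjusted p 0.695) and 0.86 for Foxo3 (edgeR adjusted p 0.710), with 0 genes of the 7 called. For shares the block leaves the differences at -3.78, 1.07 and -14.7 points for Trim63, Fbxo32 and Foxo1 by arithmetic, and exact permutation by sign flips gave p of 0.25, 1 and 0.25, where 0.25 is the smallest 3 pairs allow. The numbers name different animals, and same-numbered libraries had a mean correlation of deviations of -0.0734.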

Other observations

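Doxorubicin library 3 was the highest of the 6 libraries for Fbxo32, Foxo1 and Foxo3, and also for several genes of the pathway lists. Of the latter, 3 were picked after their values were seen. Klf9 was 2.56 times, Zbtb16 2.72 times and Pik3r1 1.82 times the next highest library there, and Foxo3 2.20 times. Zbtb16, a glucocorticoid-induced zinc finger gene, had 20, 13 and 21 counts in controls and 26, 32 and 92 counts after doxorubicin. Pik3r1, the regulatory subunit gene of the insulin-activated lipid kinase, had 30, 73 and 82 counts in control and 92, 91 and 200 counts in doxorubicin libraries. The pattern was not particular to these genes. Nebl and Prkaa2 were also highest there, at 136 and 57.2 CPM, against 53.3 and 23.5 CPM in control library 2, the next highest. Mt1 of the glucocorticoid list was lowest there, at 25.6 CPM. Across all tested symbols this library was at least 1.5 times the next highest for 2.94%, against 0.293% to 2.09% in the other libraries. Trim63 did not share the pattern and was at 150 CPM in that library, below the control mean of 184 CPM.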
